A study of Homo sapiens with 4 samples.

Results

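The 10 genes described here report on signalling through the ERK kinases. They are the phosphatases DUSP4, DUSP5 and DUSP6, the feedback inhibitors SPRY1, SPRY2, SPRY4 and SPRED1, and the transcription factors ETV1, ETV4 and ETV5. They were chosen by symbol as known transcriptional outputs of the pathway, with earlier results of these data known. All 10 were on the array with 1 probe set each, and they are 10 of 18417 genes with a probe set of their own. The study used MDA-MB-231, an established line of human triple-negative breast cancer with mesenchymal traits, grown with 10% serum. A lipid reagent delivered either the empty control vector or a plasmid encoding FOXC1, a transcription factor of the forkhead family. RNA of 2 vector and 2 FOXC1 samples, biological replicates by their labels, went onto 4 Affymetrix whole-transcript gene arrays. The sources used here do not say whether expression was transient or stable, or whether clones were picked, and p-values measure only the spread between these arrays. FOXC1 mRNA was not analysed here, and no check of the labels rests on it.

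Signal is the linear, gene-level PLIER value, an estimate of probe brightness. Its median over all probe sets was between 489 and 512 on the 4 arrays, and the log2 signals of arrays correlated at 0.997 within each group and at 0.992 between groups over probe sets (not independent replicates). The small number of arrays limits the precision. Of the markers of the line, VIM, CD44, AXL and CAV1 lay between the 99.1 and 99.8 percentile of brightness over genes, and SPARC lay at 13.3. Of these 5, CAV1 (log2 change -0.28) and VIM (-0.06) fell and CD44 (0.23) rose. Of the luminal markers, the receptors ESR1 and PGR lay at percentiles 23.1 and 6.33, and GATA3 and EPCAM at 51.2 and 51.1, while the keratins KRT8 and KRT18 lay at 97.2 and 97.1. Luminal markers moved with the group, and 5 of 8 fell, beside 15.5% of all genes. Their summed signal, mostly KRT8 and KRT18, was 20746 to 21382 on the vector arrays and 17405 to 17549 on the FOXC1 arrays. Among the luminal markers FOXA1 fell most (log2 change -1.35, mean signal 548 in vector and 205 in FOXC1 cells). ESR1, PGR and CDH1 (log2 changes 0.11, 0.11 and 0.03) did not pass. Endothelial markers fell in 2 of 5 (summed signal 2817 to 3036 against 2156 to 2171). The falls were in PECAM1 (log2 change -1.65, mean signal 816 in vector and 247 in FOXC1 cells) and KDR (-0.81). CDH5, VWF and TEK did not pass. Leukocyte markers rose in 2 of 5 (9496 to 9598 against 9879 to 10210) and fibroblast markers in 1 of 5 (1429 to 1436 against 1503 to 1559), beside 15.9% of all genes. The leukocyte rises were CD68, which made up most of that sum (mean signal 8483 in vector, 8922 in FOXC1 cells), and the dim PTPRC (63 and 94, percentile 4.13). The fibroblast rise was the dim DCN (89 and 147, percentile 8.93). None of these markers was listed at 0. Their part in the results below was not tested, and in such bulk samples fewer cells of a type and less RNA per cell cannot be told apart.

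ERK is the last kinase of the cascade that runs from growth factor receptors through Ras, Raf and MEK. Active ERK switches on its own inhibitors: dual-specificity phosphatases remove the activating phosphates from MAP kinases, and Sprouty and Spred proteins block the cascade near Ras and Raf. The ETV factors of the PEA3 group, members of the ETS family, are induced by the same signal and carry it on to genes of growth and invasion. Because these transcripts follow ERK activity, they are commonly used as a readout of it, although each has other regulators as well.

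The 10 genes lay lower in FOXC1 cells. Both FOXC1 arrays were below both vector arrays for all 10, which held for 26.4% of all genes. With limma (Benjamini-Hochberg adjusted p under 0.05 over all named probe sets), 9 of 10 fell and 0 rose, SPRY2 being the exception, against 31.4% of all genes called in either direction, 15.5% lower and 15.9% higher. The 10 lay between the 66.3 and 95.8 percentile of brightness, and the shares over all genes were not matched for brightness. The median log2 change of the 10 was -0.33, on the scale of log2(signal + 16) and as FOXC1 minus vector, beside 0.03 over all genes. The changes ran from -0.94 in ETV1 to -0.06 in SPRY2, and 2 of the 10, ETV1 and SPRY1, were past 1.5-fold. Within the FOXC1 group, 8 of the 10 were lower on replicate 2 than on replicate 1, as were 54.7% of all genes, and SPRY4 and ETV5 were the exceptions. Centring each array on its median turned the balance over all genes to 1739 higher and 3396 lower (2925 and 2852 as deposited), and centring on the probe sets with a gene symbol, chosen after seeing the data, turned it to 3758 higher and 2543 lower. The 10 genes stayed below 0 under both, with 9 and 8 called lower.

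**Figure D1:**
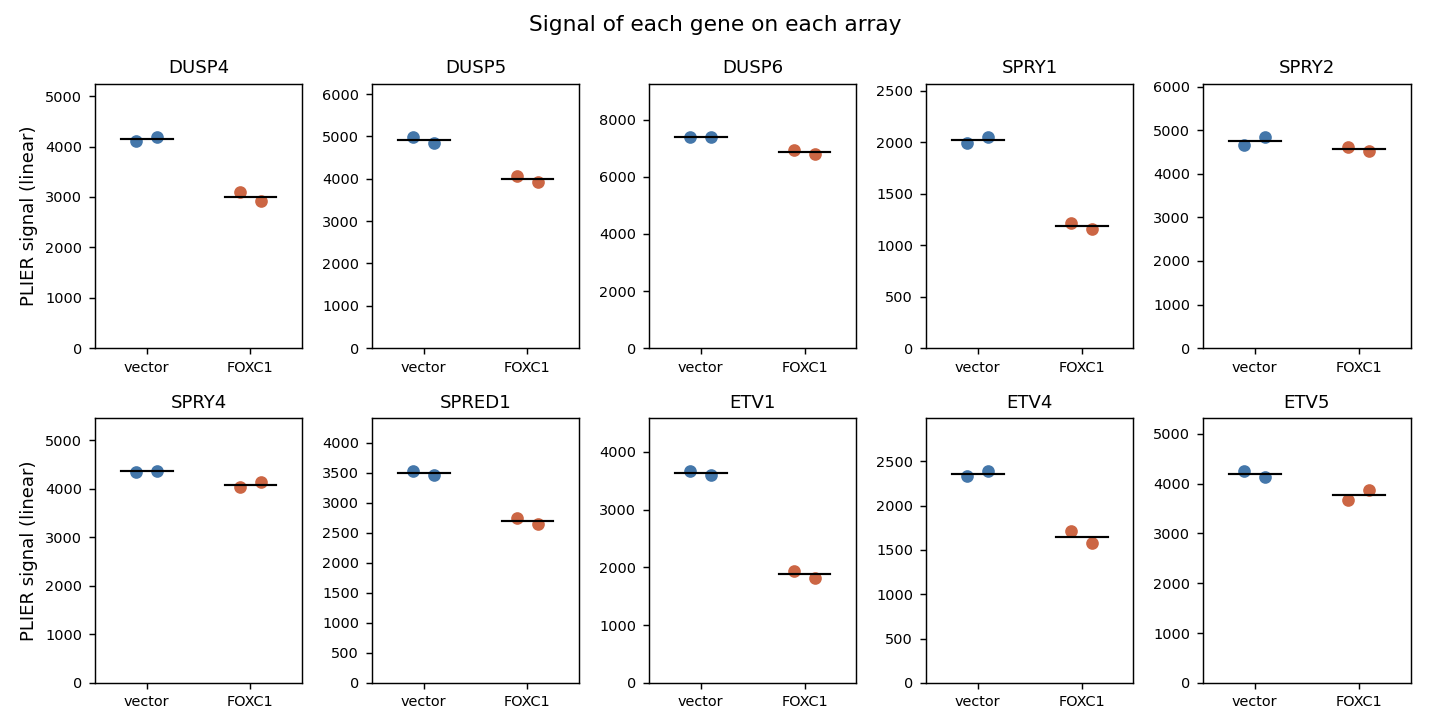
Linear PLIER signal (vertical axis, from 0, scaled separately for each gene) of the 10 genes on the 2 vector arrays (blue) and the 2 FOXC1 arrays (orange); each point is an array and each line a group mean. Both FOXC1 points lie below both vector points in every panel, with the widest gap for ETV1 (3627 against 1877) and the narrowest for SPRY2 (4757 against 4570).

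Among the phosphatases, DUSP4 showed the largest difference. DUSP4, a nuclear phosphatase, had signals of 4117 and 4200 on the vector arrays and 3090 and 2927 on the FOXC1 arrays. The groups were well apart, and DUSP4 fell by 0.47 on the log2 scale (log2 change -0.47 ± 0.04 SE, 1.38-fold; limma adjusted p = 1.79e-09). DUSP5, a nuclear phosphatase selective for ERK, had signals of 4998 and 4836 in vector and 4072 and 3935 in FOXC1 cells. It fell 1.23-fold (log2 change -0.30 ± 0.03 SE; limma adjusted p = 3.81e-07). DUSP6, the cytoplasmic phosphatase selective for ERK and a classical readout of its activity, had signals of 7412 and 7382 in vector and 6935 and 6803 in FOXC1 cells. Its fall was small beside those of DUSP4 and DUSP5, 1.08-fold (log2 change -0.11 ± 0.03 SE; limma adjusted p = 0.00351), and its call was lost when limma drew variances towards a value common to all genes rather than one that follows brightness (no trend; limma adjusted p = 0.145).

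The other MAP kinase phosphatases did not share one direction. Of 7 chosen and measured, 3 rose (42.9%, beside 15.9% of all genes) and 2 fell (28.6%, beside 15.5%). DUSP10, which acts mainly on the stress kinases JNK and p38, had signals of 2703 and 2787 in vector and 3581 and 3587 in FOXC1 cells, a rise of 1.30-fold (log2 change 0.38 ± 0.04 SE; limma adjusted p = 3.38e-08). DUSP7, a cytoplasmic relative of DUSP6, rose 1.17-fold, from 7287 and 7301 to 8735 and 8412 (limma adjusted p = 5.28e-07). DUSP9, the third cytoplasmic ERK phosphatase, rose 1.16-fold from 448 and 405 to 495 and 496 (limma adjusted p = 0.049), a call lost under 9 of 16 alternatives, among them leaving out vector replicate 2 (log2 change 0.14, limma adjusted p = 0.435). The immediate early phosphatase DUSP1 fell 1.19-fold, from 9620 and 9954 to 8343 and 8100 (limma adjusted p = 1.36e-07), and DUSP16, which acts on JNK and p38, fell 1.25-fold, from 764 and 735 to 621 and 571 (limma adjusted p = 8.80e-04). DUSP2 (log2 change 0.06 ± 0.07 SE) and DUSP8 (log2 change -0.04 ± 0.06 SE) did not pass.

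The Sprouty genes differed among themselves. SPRY1 had signals of 1989 and 2055 on the vector arrays and 1214 and 1158 on the FOXC1 arrays. It fell 1.70-fold (log2 change -0.76 ± 0.05 SE; limma adjusted p = 6.98e-11), and only 1.25% of all genes had a change as low or lower. SPRY4 had signals of 4349 and 4357 in vector and 4033 and 4126 in FOXC1 cells, and fell 1.07-fold (log2 change -0.09 ± 0.03 SE; limma adjusted p = 0.0312). This call was lost under 6 of 17 alternatives, including those without vector replicate 1 (limma adjusted p = 0.163), vector replicate 2 (0.18) and FOXC1 replicate 1 (0.092). SPRY2 had signals of 4659 and 4854 in vector and 4620 and 4521 in FOXC1 cells. Its group means (4757 and 4570) lay closer together than the 2 vector arrays did, and SPRY2 did not pass (log2 change -0.06, 95% interval -0.12 to 0.01; limma adjusted p = 0.199). The interval leaves room for a small fall. SPRED1, which brings neurofibromin to Ras, had signals of 3527 and 3461 in vector and 2752 and 2654 in FOXC1 cells and fell 1.29-fold (log2 change -0.37 ± 0.04 SE; limma adjusted p = 8.28e-08).

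Of the 3 other genes of this family, SPRED2 fell 1.12-fold, from 4231 and 4065 to 3712 and 3682 (limma adjusted p = 6.31e-04), a call lost with variance moderation without a trend (limma adjusted p = 0.0689). SPRED3 (log2 change 0.12 ± 0.07 SE) and the dim SPRY3 (signals of 171 and 172 in vector, 161 and 144 in FOXC1 cells; log2 change -0.16 ± 0.11 SE) did not pass.

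The promoters of SPRY1, which fell most in the family, and of SPRY2 and SPRY4, which differed least, are shown for comparison of their sequence. They are the 250 bases upstream of the outermost annotated start, from RefSeq on GRCh38.p14, 5′ to 3′ on the gene's strand, with capitals for any match to a searched motif. SPRY1 lies on the plus strand (chr4:123396545-123396794), SPRY2 on the minus strand (chr13:80341127-80341376) and SPRY4 on the minus strand (chr5:142324248-142324497).
SPRY1: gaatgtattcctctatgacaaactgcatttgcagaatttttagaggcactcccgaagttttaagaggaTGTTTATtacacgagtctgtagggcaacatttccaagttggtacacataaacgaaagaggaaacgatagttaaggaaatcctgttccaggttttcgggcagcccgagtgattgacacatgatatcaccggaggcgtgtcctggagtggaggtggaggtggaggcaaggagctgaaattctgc
SPRY2: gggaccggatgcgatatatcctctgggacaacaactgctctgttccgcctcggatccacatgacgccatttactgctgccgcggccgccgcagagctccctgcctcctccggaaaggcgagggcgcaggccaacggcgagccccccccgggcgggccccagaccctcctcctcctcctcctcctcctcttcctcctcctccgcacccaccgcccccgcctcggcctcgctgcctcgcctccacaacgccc
SPRY4: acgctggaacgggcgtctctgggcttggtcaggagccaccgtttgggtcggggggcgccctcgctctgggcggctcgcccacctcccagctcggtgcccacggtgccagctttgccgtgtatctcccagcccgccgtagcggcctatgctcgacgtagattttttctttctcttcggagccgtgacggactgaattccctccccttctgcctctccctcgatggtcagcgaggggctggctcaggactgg
The SPRY1 stretch is 45.6% G or C, and those of SPRY2 and SPRY4 are 70.4% and 65.6%, beside a mean of 57.2% over all 35116 promoters of the table. SPRY1 has 2 annotated starts and SPRY2 has 3, and the share of G or C upstream of the inner ones is not given here. The capitals in SPRY1 mark ATAAACA read on the other strand, and the stretches of SPRY2 and SPRY4 hold no match. ATAAACA joined the search only after these sequences had been read, so this contrast is a description and no test.

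**Figure D2:**
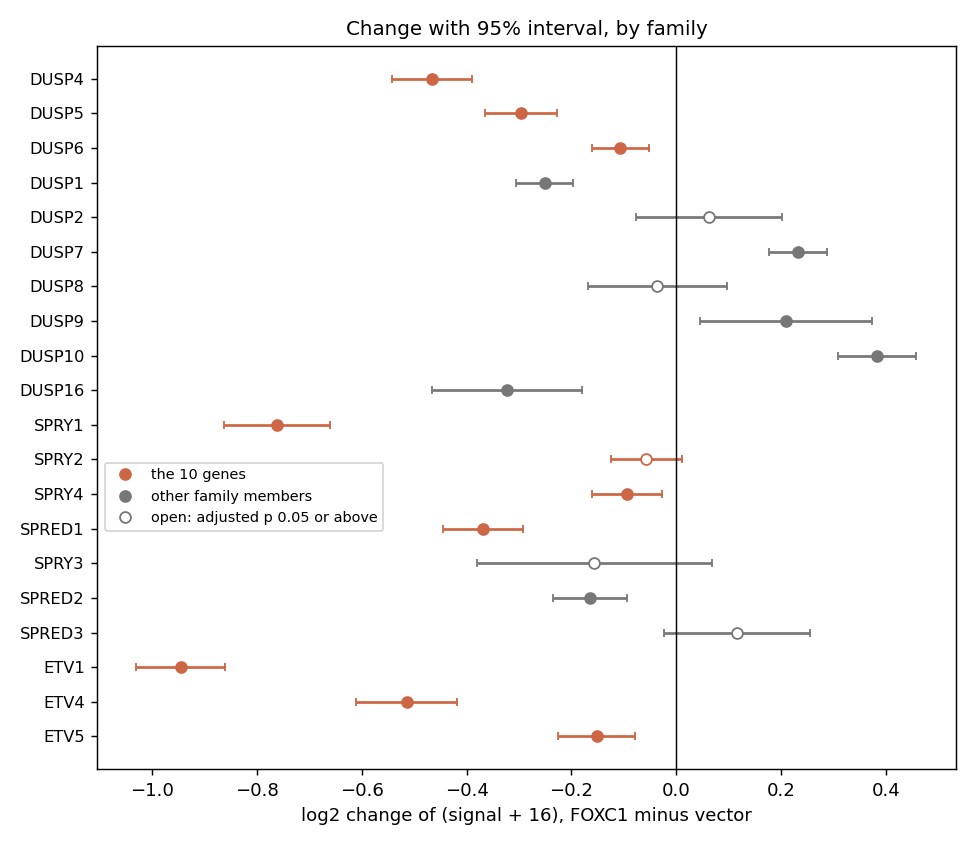
Log2 change of signal + 16, FOXC1 minus vector (horizontal axis), with its 95% interval from limma. Orange points are the 10 genes, and grey points are the other listed MAP kinase phosphatase, Sprouty and Spred genes. Open points did not reach an adjusted p under 0.05. All 10 orange points lie left of 0, from -0.94 for ETV1 to -0.06 for SPRY2, while DUSP7, DUSP9 and DUSP10 lie to the right of it.

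All 3 PEA3-group factors fell, by unequal amounts. ETV1 had signals of 3662 and 3592 on the vector arrays and 1933 and 1821 on the FOXC1 arrays. It fell 1.93-fold (log2 change -0.94 ± 0.04 SE; limma adjusted p = 9.12e-14), and 0.771% of all genes had a change as low or lower. ETV4 had signals of 2334 and 2389 in vector and 1715 and 1584 in FOXC1 cells, and fell 1.43-fold (log2 change -0.51 ± 0.05 SE; limma adjusted p = 1.67e-08). ETV5 had signals of 4246 and 4124 in vector and 3665 and 3868 in FOXC1 cells. Its groups did not overlap but lay closer together, and it fell 1.11-fold (log2 change -0.15 ± 0.04 SE; limma adjusted p = 0.00205), a call lost with variance moderation without a trend (limma adjusted p = 0.104). The 3 genes whose pattern over the 4 arrays was most like that of ETV1, by the root mean square difference of centred log2 signal, were the peptide hormone gene UCN2 (0.00862), the stem cell receptor gene LGR5 (0.0134) and the transcriptional regulator TSC22D1 (0.0146). With 4 arrays in 2 groups this likeness is mostly a like change.

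ETV1 fell most of the 10, and the 250 bases upstream of its outermost annotated start (minus strand, chr7:13991426-13991675 on GRCh38.p14, from RefSeq) are shown in the same way, with capitals for ATAAACA.
ETV1: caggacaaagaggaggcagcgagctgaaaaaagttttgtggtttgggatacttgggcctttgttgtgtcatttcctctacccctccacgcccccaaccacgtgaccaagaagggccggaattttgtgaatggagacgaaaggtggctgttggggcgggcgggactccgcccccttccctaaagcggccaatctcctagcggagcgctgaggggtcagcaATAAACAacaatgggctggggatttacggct

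RefSeq's promoter table held 6 of the 10 genes, namely DUSP6, SPRY1, SPRY2, SPRY4, SPRED1 and ETV1, with 14 annotated starts between them. Windows from 250 bases before to 50 after each start were searched on both strands for several motifs. The ETS motifs were GGAAGT, the core with its flank, and the longer CCGGAAG, which can overlap with it. The AP-1 motif was TGACTCA, which covers its reverse form as well. The cyclic AMP response element TGACGTCA and the serum response element were also searched. For forkhead factors the core GTAAACA was used, together with a variant of that core, GTAAATA. The shorter ETS motif was found at 2 of the 14 starts, 1 each of ETV1 and SPRY2, and in 22.8% of all promoters. The longer one was found at 1 of the 14, of SPRY1, and in 10.3% of all promoters. The ETV1 match lies after its start. The upstream matches of SPRY1 and SPRY2 lie at inner starts and are shown in windows of 30 bases, SPRY1 at chr4:123398308-123398337 on the plus strand and SPRY2 at chr13:80340109-80340138 on the minus strand, with capitals for the match.
SPRY1 inner start: gccctccgcagCCGGAAGggggccgcgggg
SPRY2 inner start: ggttgcccgcctcgggggcaggagACTTCC
The SPRY1 match begins 67 bases before its start and the SPRY2 match, read on the other strand, ends at its start. None of the other motifs of the list was found for the 6 genes (4.95% of all promoters for AP-1, 1.85% for the cyclic AMP element, 1.29% for the serum response element, 3.42% for GTAAACA and 2.67% for GTAAATA), which says only that these letters are not in these windows. ATAAACA, another forkhead core, was added after the sequences had been read. It was found at 3 of the 14 starts, 1 of SPRY1 and 2 of ETV1, and in 4.24% of all promoters. Starts of a gene can share sequence and are not independent. No binding was measured.

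Changes within a family were set against each other on the same array, which removes any scaling of a whole array. Of 12 pairs within the DUSP, Sprouty and Spred, and ETV genes, 11 had groups that did not overlap, and SPRY2 against SPRY4 was the exception (difference of log2 changes 0.04 ± 0.04 SE). The pairs share genes and are not independent. The share of all gene pairs without overlap was not computed, so the count has no background. The log2 change of SPRY1 minus that of SPRY2 was -0.70 ± 0.02 (SE, n = 2 arrays a group). The same difference was -0.79 ± 0.08 for ETV1 minus ETV5 and -0.36 ± 0.03 for DUSP4 minus DUSP6. The exact two-sided permutation test cannot go below p = 0.333 with 2 arrays against 2, and no adjusted value over the 12 pairs can be lower.

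Genes that lie side by side can shift together, so each gene was set beside the 5 measured genes on either side of it in RefSeq's gene order. For DUSP4, SPRY1, SPRED1, ETV1 and ETV4, none of the 10 neighbours was as low as the gene itself. The median log2 change of the neighbours was -0.01 for DUSP4, -0.04 for SPRY1, -0.05 for SPRED1, -0.02 for ETV1 and 0.07 for ETV4. DUSP5 had neighbours with a median of -0.07, and 1 of them, the adducin gene ADD3, was lower than DUSP5 (log2 change -0.53). For DUSP6 the median of the neighbours, -0.12, was as low as its own change of -0.11, and 5 of the 10 were as low or lower. Of its neighbours 4 fell, among them the calcium pump ATP2B1 and the KIT ligand KITLG, and 4 neighbours each fell for DUSP4 and DUSP5 as well. For SPRY1 and ETV1 3 neighbours each fell, and for the rest from 0 (SPRED1 and ETV4) to 2, beside 15.5% of all genes. Of all genes with a position, 2.98% had a lower neighbour median than DUSP6. For the others this share ran from 7.91% (DUSP5) to 75.0% (ETV4). For SPRY2, SPRY4 and ETV5 the neighbour medians were 0.06, 0.00 and -0.02, with 2, 1 and 1 neighbours as low or lower.

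**Figure D3:**
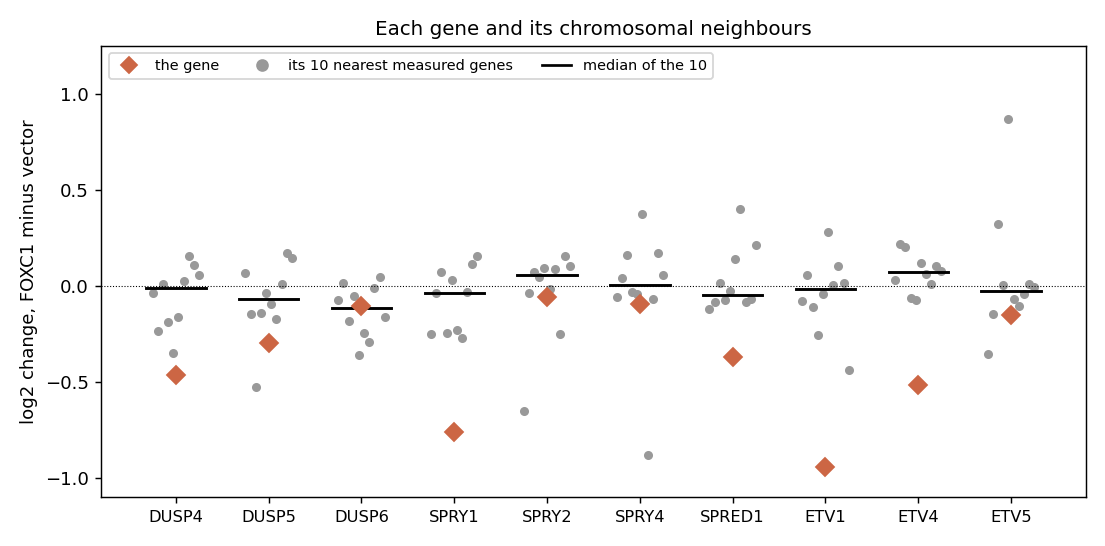
Log2 change, FOXC1 minus vector (vertical axis), of each of the 10 genes (orange diamonds), of the 5 nearest measured genes on each side along the chromosome (grey points) and the median of those 10 (black lines). ETV1, SPRY1, ETV4, DUSP4 and SPRED1 lie below all their neighbours, and DUSP6 lies at the median of its own.

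The rest of the pathway was described with 6 lists that leave out the 10 genes and, like them, were chosen with earlier results known. Of 64 measured genes in these lists, 22 fell (34.4%, beside 15.5% of all genes) and 10 rose (15.6%, beside 15.9%). Their median log2 change was -0.04, beside 0.03 over all genes. The shares over all genes include dim genes, which were called less often. The stricter filter (50th percentile) left 2336 genes lower and 2484 higher, from 2852 and 2925. It also took the dimmer genes out of the total, so the shares among the genes kept are higher than 15.5% and 15.9%. A share among equally bright genes was not computed, so the size of the excess of falls is not known. Under that filter 22 list genes fell and 9 rose. The count of rises was 5 with median centring, 5 with variance moderation without a trend, 6 without vector replicate 1 and 5 without vector replicate 2. Upstream, in the cascade that leads to ERK, 5 of 13 genes fell (38.5%) and 1, the phosphatase PTPN11, rose (7.69%). The rise of PTPN11 (log2 change 0.10) lost its call without vector replicate 2 (limma adjusted p = 0.0717), with median centring (0.311), without a trend (0.172) and with all rows in the fit (0.0506). The scaffold KSR1 fell 1.50-fold, from 1066 and 1087 to 731 and 691 (limma adjusted p = 1.17e-07). The Ras exchange factors SOS2 and SOS1 fell 1.36-fold and 1.16-fold (limma adjusted p = 6.52e-09 and 1.55e-05). The adaptor GAB1 fell 1.26-fold by its brighter probe set, but its call was lost when its probe sets were averaged (log2 change -0.15, limma adjusted p = 0.0637). The fifth fall was in MAPK3, which encodes an ERK kinase (log2 change -0.14 ± 0.04 SE; limma adjusted p = 0.00409), a call lost without a trend (limma adjusted p = 0.104). The MEK genes MAP2K1 and MAP2K2 did not pass (log2 changes -0.05 ± 0.03 and -0.06 ± 0.04 SE).

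Downstream, 8 of 14 other ERK output genes fell (57.1%, beside 15.5% of all genes) and 2, IER3 and PLAUR, rose (14.3%, beside 15.9%). The count of falls was 5 without vector replicate 1 and 5 without a trend. PLAUR lost its call under 7 of 17 alternatives, among them those without vector replicate 1 (limma adjusted p = 0.204), vector replicate 2 (0.164) and FOXC1 replicate 1 (0.122), and with median centring (0.615). EMP1, a membrane protein gene, fell 1.84-fold, from 7606 and 7451 to 4125 and 4060 (limma adjusted p = 1.05e-15). The cytokine IL11 fell 1.52-fold, the zinc finger factor EGR1 1.29-fold and PHLDA1 1.27-fold (limma adjusted p between 6.90e-12 and 4.63e-09). FOSL1 (log2 change 0.02 ± 0.03 SE) and the cyclin CCND1 (log2 change -0.04 ± 0.03 SE), both common readouts of ERK, did not pass. FOSL1, CCND1, MAPK3, MAP2K1, MAP2K2 and the list genes that rose in the cascade, output and effector lists were picked for mention after their values were seen. Of 11 effector kinases and regulators, 5 fell (45.5%) and 2, PEA15 and LZTR1, rose (18.2%). LZTR1 lost its call under 6 of 17 alternatives, among them those without vector replicate 1 (limma adjusted p = 0.107), vector replicate 2 (0.253) and FOXC1 replicate 1 (0.0752), and PEA15 without a trend (0.0761). The EGFR inhibitor ERRFI1 fell 1.51-fold, from 10670 and 10624 to 7026 and 7067 (limma adjusted p = 3.86e-14). The ERK-activated kinase genes MKNK2 and RPS6KA1 fell 1.42-fold and 1.29-fold, and the ubiquitin ligase CBL 1.26-fold (limma adjusted p between 2.22e-09 and 2.61e-07).

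Of the 16 other ETS factors measured, 13 did not pass, 1 fell (6.25%, beside 15.5% of all genes) and 2 rose (12.5%, beside 15.9%). With median centring 2 fell and 1 rose. ELF1 fell 1.25-fold (limma adjusted p = 3.30e-07), ELF4 rose 1.25-fold (limma adjusted p = 7.09e-05) and ELK4 rose 1.09-fold (limma adjusted p = 0.012), a call lost without vector replicate 1 (limma adjusted p = 0.101), without vector replicate 2 (0.0944), without a trend (0.115) and with median centring (0.269). The median log2 change of these factors was 0.06, beside -0.51 over ETV1, ETV4 and ETV5.

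**Figure D4:**
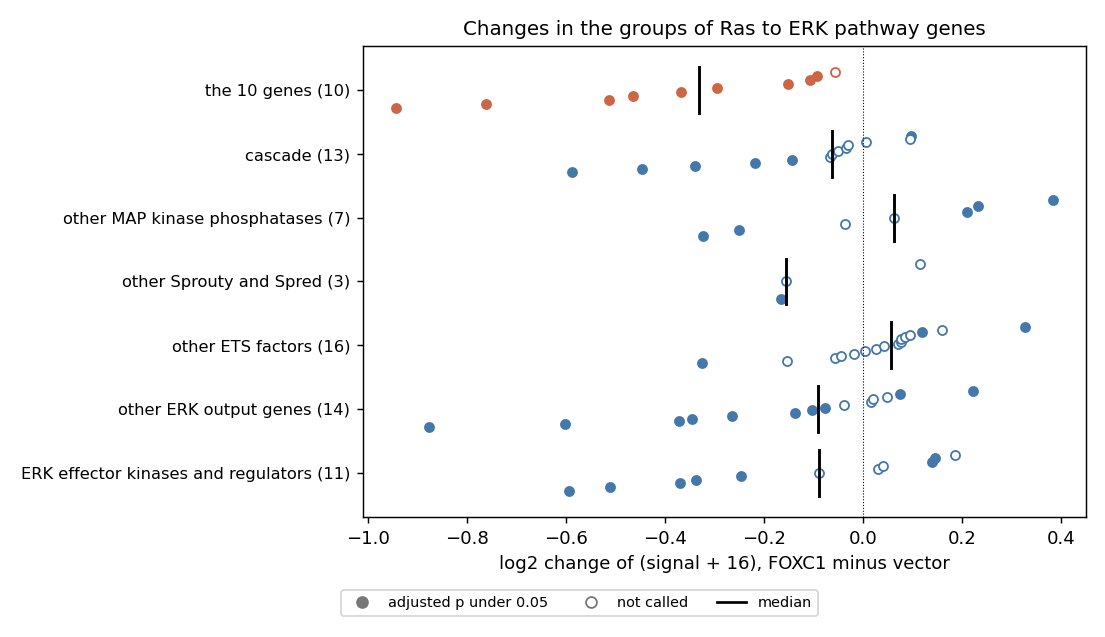
Log2 change of signal + 16, FOXC1 minus vector (horizontal axis), for the 10 genes (orange) and for 6 lists of other pathway genes (blue, number of measured genes in brackets); filled points had an adjusted p under 0.05 and black lines are medians. The median is -0.33 for the 10 genes and lies between -0.16 and 0.06 in the 6 lists.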

How the data were processed

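The deposited values are PLIER signal, an intensity on a linear scale, which the authors obtained at gene level with Affymetrix Expression Console, per the labels. RNA (100 ng) was amplified with a whole-transcript protocol, per the labels' protocols. The sources used here give no software version and no option for background or normalization. Values were used as deposited, and 16 was added before log2, which shrinks changes of dim genes.

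Of 33297 probe sets, 21214 carried a gene symbol and entered 1 fit in limma 3.58.1 under R 4.3.3 (lmFit, then eBayes with a mean-variance trend, 2 residual and 18.1 prior degrees of freedom, two-sided, Benjamini-Hochberg over the 21214, called at 0.05). Genes were counted at 1 probe set, the brightest with a single symbol (18417 genes). Errors are SE of the fit. The fit was tested on simulated data with the same spread for every probe set, which cannot test the mean-variance trend.

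Groups and replicate numbers come from the labels. Same-numbered arrays did not deviate together (correlation -0.01). The 10 genes and the 6 lists (64 of 74 genes measured) were chosen with earlier results of these data known. Named are the 10 genes, all listed DUSP, Sprouty and Spred relatives, and up to 4 called genes of each list with the largest changes. Genes completing a small count were picked after their values were seen. Protein sequences and some pathway genes were not analysed here. Alternatives were other offsets (1 and 64), filters on signal (25th or 50th percentile), quantile normalization, 2 centrings, other variance moderation, the replicate block, each array left out, probe set means, all rows and an adjusted p of 0.10.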

Additional observations from a re-analysis of the deposited data

How the results depend on the processing

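Under 17 alternatives all 10 log2 changes stayed below 0, and DUSP4, DUSP5, SPRY1, SPRED1, ETV1 and ETV4 were called under each. The number of the 10 called lower was 6 with variance moderation without a trend, 8 or 9 under the others (8 to 9 when an array was left out), and none was called higher. No called log2 change of the 10 genes, or of the list genes with values under the alternatives, changed sign, while that of DUSP8, which was not called, ran from -0.11 to 0.04. Over all genes the balance turned to more falls with median centring and with quantile normalization (3221 lower, 2576 higher). It also did so without a trend (1790 lower, 1461 higher) and under some other alternatives, among them leaving out vector replicate 2. Among the other ETS factors falls outnumbered rises with median centring and without vector replicate 2. SPRY4 also lost its call with all rows in the fit (limma adjusted p = 0.0917), without a trend (0.187) and with centring on named probe sets (0.0829). Over all genes the count of rises, 2925, became 1739 with median centring, 1461 without a trend and 1858 with all rows, and 1913 to 2951 when an array was left out. The count of falls, 2852, became 1790 without a trend. Of the 64 pathway list genes, 10 rose, but 5 with median centring, 5 without a trend, 6 with all rows and 5 to 11 when an array was left out. The cause was not tested. Single list counts moved by over 1.5 times in 34 of 204 comparisons. With the replicate number as a block, 9 of the 10 fell and the calls were 3099 lower and 3339 higher over all genes. Arrays carry no read depth, and no detection calls were used.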
